A study of Drosophila melanogaster with 2 samples.

Results

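The Slit-Robo and Netrin midline guidance genes are 9 fly genes: sli, NetA and NetB for secreted ligands, robo1, robo2, robo3, fra and unc-5 for receptors, and comm for a protein that sorts a receptor. They were taken by name from the 13986 protein-coding genes of the annotation. The rule uses no measured value, but the genes were chosen with earlier results of these data known. For each gene, every peak with its summit inside the gene or within 5 kb of it was collected. The data are chromatin immunoprecipitation followed by sequencing (ChIP-seq) of whole, mixed-sex Drosophila melanogaster embryos aged 0 to 24 h, with 2 biological replicates of 1 group. The flies, of the strain side-MiMIC-GFP, carry an eGFP exon in an intron of a gene, which gives a Side-eGFP fusion according to 1 label, while another label names Sidpn as the target of the insertion; side and Sidpn are separate genes in the annotation, and the labels do not settle which was tagged. The precipitating antibody recognised GFP, and the labels give no second genotype or condition. Whole embryos mix all tissues, so a peak does not tell in which cells the tagged protein was bound.

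In the embryonic nerve cord, axons either cross the midline or stay on their own side. Slit is secreted by midline glia and repels axons that carry Robo receptors. Netrins, made at the midline, attract axons through Frazzled, the fly homologue of DCC, and repel those that carry Unc-5. Commissureless diverts Robo1 from the growth cone surface until an axon has crossed, and Robo2 and Robo3 help to set how far from the midline an axon runs.

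At 4 places where NetA, robo2 or comm held a peak past the authors' threshold outside promoters and untranslated regions, the sequence under the summit is shown, since these summits lie away from the members' start sites. Each is read from the plus strand of Release 6 of the genome, the whole peak where it was narrower than 200 bp and otherwise 60 bp on each side of the summit, and capitals mark matches to the motifs named further on.
robo2, upstream, chr2L:1422831-1423018: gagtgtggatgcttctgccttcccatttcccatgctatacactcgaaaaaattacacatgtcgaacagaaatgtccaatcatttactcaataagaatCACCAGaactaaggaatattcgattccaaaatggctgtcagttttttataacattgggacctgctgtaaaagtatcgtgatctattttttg
comm, upstream, chr3L:15729516-15729636: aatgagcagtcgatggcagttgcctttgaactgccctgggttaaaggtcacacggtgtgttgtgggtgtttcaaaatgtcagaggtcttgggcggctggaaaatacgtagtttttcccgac
NetA, intron, chrX:14627541-14627661: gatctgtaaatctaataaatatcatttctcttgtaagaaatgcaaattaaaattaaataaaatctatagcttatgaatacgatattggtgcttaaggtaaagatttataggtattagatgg
NetA, intron, chrX:14633247-14633367: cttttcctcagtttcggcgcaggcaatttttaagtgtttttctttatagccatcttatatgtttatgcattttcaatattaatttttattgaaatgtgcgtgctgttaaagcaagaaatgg
The robo2 sequence holds 1 N-box match, and the other 3 hold none of the 9 motifs. Both NetA introns are rich in A and T at the summit, with a GC content of 24.0% and 31.4%, against 36.7% at robo2 and 49.6% at comm.

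The authors' pooled list holds 30000 candidate peaks, and 4097 of them form a further list past their irreproducible discovery rate (IDR) threshold, called thresholded peaks here. These are the 4097 candidates of highest signal, where signal is the strength value that the authors' peak caller gave each peak, in no stated unit, and rank 1 is the strongest peak of a list. Within 5 kb of the members lay 155 candidates in 130 separate regions, of which 23 (14.8%) were thresholded, close to the 13.7% of all candidates that were. At least 1 thresholded peak lay at 8 of the 9 genes; robo3 had none. Of all protein-coding genes 46.3% had one within 5 kb, and the median protein-coding gene is 2.16 kb long, whereas the members run from 6.92 to 63.3 kb with a median of 40.2 kb. Among the 623 protein-coding genes of 25 to 65 kb, a range set after the data were seen to hold the 7 long members, 62.4% had a thresholded peak, and 6 of those 7 members did. With no flank, 7 members and 11.7% of protein-coding genes held a thresholded summit. Among the 1000 strongest peaks, 3 members (robo2, fra and unc-5) and 16.9% of protein-coding genes kept one. Neither share was counted for genes of 25 to 65 kb alone, so gene length is not matched in them.

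**Figure D1:**
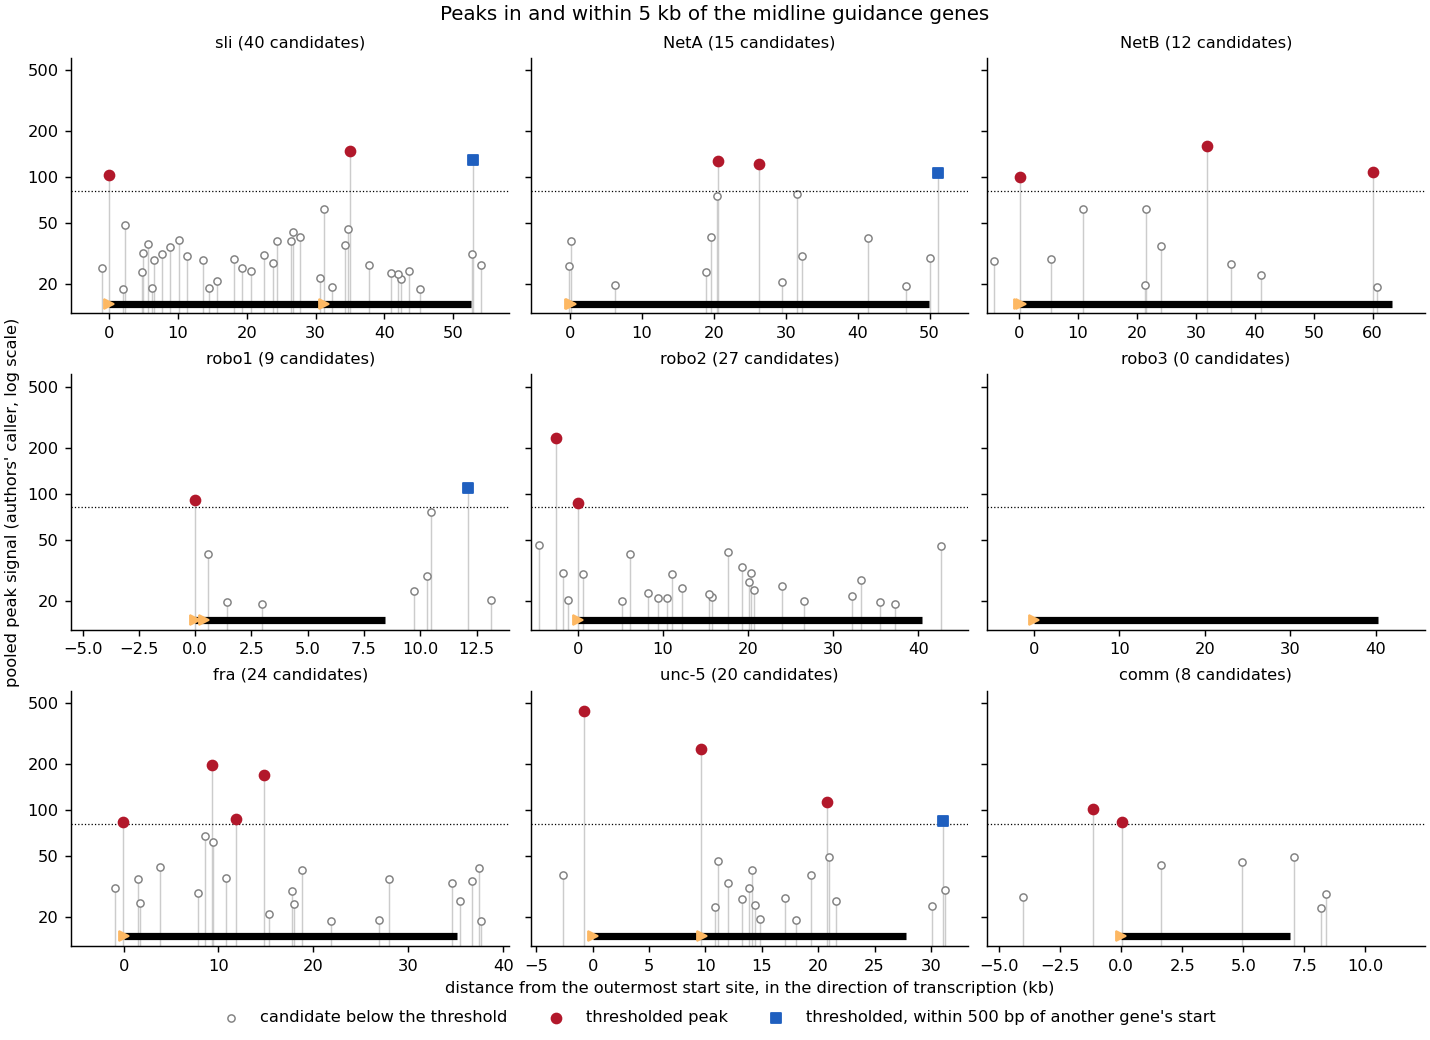
Signal of each pooled candidate (log scale) against its distance from the outermost start site in kb, in the direction of transcription, for each member; black bars are the genes, orange arrows their annotated start sites, and the dotted line the lowest thresholded signal, 81.5. Filled red circles are thresholded peaks, blue squares thresholded peaks within 500 bp of another gene's start, open circles weaker candidates; unc-5 holds the strongest peak (445) and robo3 none.

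The nearest start site was a member's for 12 of the 23 thresholded peaks and another gene's for 11. Of the 23, 7 lay at promoters of members (summit within 500 bp of a start site), 8 in introns, 3 upstream, 1 in a 3' UTR and 4 downstream. These places were not counted over all thresholded peaks. All 4 downstream summits lay within 500 bp of the start of a neighbouring coding gene, namely Rif1 beside sli (68 bp), Ppa beside robo1 (141 bp), sbm beside NetA (206 bp) and Pms2 beside unc-5 (8 bp). Without those, 19 peaks remained, at 8 members. The median signal of the 23 was 108, below the 124 of all thresholded peaks, with a range of 83.5 to 445. The 7 peaks narrower than 410 bp, the width of all the others, were the upstream peaks of robo2 and unc-5, the inner promoter of unc-5, a pair of intronic peaks of fra, and an intronic and the 3' UTR peak of NetB. For 7 further peaks in introns or the 3' UTR, the nearest start site belonged to another gene 1513 to 25021 bp away. That gene was CG33752 for the 3 intronic peaks of fra (7369, 4813 and 1882 bp), hog for the intronic peak of NetB and CG5321 for its 3' UTR peak (9735 bp), sbm for 1 intronic peak of NetA and Pms2 for an intronic peak of unc-5 (10291 bp).

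Among the ligand genes, sli (FBgn0264089, 2R, 15869495 to 15922118) held 40 pooled candidates, the most of the 9 members. Its outer promoter had a thresholded peak with the summit 32 bp upstream of the start site, with a pooled signal of 104, 57.6 in replicate 1 and 43.6 in replicate 2. The inner start site, 31201 bp downstream, had a candidate of 62.1 at 31 bp, ranked 6150, below the threshold in the pooled list and beyond rank 4097 in both replicates (6956 and 6630). The strongest peak of sli lay in an intron 3772 bp past that inner start (15886940 to 15887349), with a pooled signal of 149.7, and ranked 1460 in the pooled list, 1540 in replicate 1 and 1426 in replicate 2. The outer promoter thus outranked the inner one in both replicates, and the intronic peak outranked both promoters. Candidates below the threshold made up 37 of the 40 and spread along the whole gene.

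The Netrin genes lie near each other on X and differed at their promoters. NetA (FBgn0015773, 14604012 to 14653928) had 2 candidates at its pair of start sites, both below the threshold. The weaker had a pooled signal of 26.2 and rank 19792, and the stronger a pooled signal of 38.4 and ranks of 11863 in the pooled list, 13155 in replicate 1 and 16230 in replicate 2. NetB (FBgn0015774, 14686038 to 14749376) had a thresholded promoter summit 62 bp past its outer start, with a pooled signal of 101, 60.5 in replicate 1 and 36.6 in replicate 2. Its rank was 2958 in the pooled list and 2597 in replicate 1 but 4754 in replicate 2. In both replicates the NetB promoter ranked ahead of the NetA promoter, and this difference was not tested.

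The strong peaks of NetA lay deep in the gene. They stood 20621 and 26327 bp from the outer start, with pooled signals of 128 and 122, ranks of 2407 and 2166 in replicate 1 and of 1826 and 2230 in replicate 2, so that both were among the top 4097 of each replicate. A candidate just below the threshold, with a signal of 77.4 and rank 4440, lay 31551 bp from the outer start, and another of 76.1 and rank 4562 overlapped the first of the strong peaks. In NetB, the strongest peak was intronic, 31947 bp from the outer start, with a pooled signal of 159, 63.4 in replicate 1 and 94.1 in replicate 2; it lay 1513 bp from the start of hog, a gene nested in NetB. A narrow peak of 102 bp in the 3' UTR of NetB (14689266 to 14689367) had a pooled signal of 108 and ranks of 2780 and 2594 in the replicates.

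The Robo receptor genes ranged from a strong upstream peak at robo2 to no candidate in the pooled list at robo3. The upstream peak of robo2 (FBgn0002543, 2L, 1380086 to 1420453), whose sequence is shown above, had its summit 2489 bp before the start site, with a pooled signal of 232, 135 in replicate 1 and 97.2 in replicate 2. It ranked 637 in the pooled list, 570 in replicate 1 and 829 in replicate 2, and the nearest start of another coding gene was 5532 bp away. At the robo2 promoter, 69 bp past the start site, a weaker thresholded peak had a pooled signal of 86.7 and ranks of 4303 and 3234 in the replicates. Each of the other 25 candidates of robo2 had a signal of at most 46.2.

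The gene robo1 (FBgn0005631, 2R, 22692524 to 22700970), for the main Slit receptor, had 1 thresholded peak of its own. Its summit lay 29 bp upstream of the outer start site, with a pooled signal of 91.0, 46.5 in replicate 1 and 45.7 in replicate 2, and ranks of 3471, 3946 and 3270. Downstream of robo1, a candidate of signal 76.1 at the start of the noncoding RNA gene lncRNA:CR44764 ranked 4561 in the pooled list, 5847 in replicate 1 and 2208 in replicate 2.

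In robo3 (FBgn0041097, 2L, 1256417 to 1296596) and 5 kb on each side, the pooled list had 0 candidates. Replicate 1 held 3 weak ones, 2 in an intron and 1 in the 3' UTR, with signals of 15.8, 15.1 and 13.04 and ranks of 21536 to 28411, and replicate 2 held 1 outside the gene with a signal of 10.7 and rank 26165. No list had a summit within 500 bp of its start site. The nearest pooled candidates stood 6393 bp before the gene and 15837 bp after it, which left 62.4 kb without a summit; 204 of the 29994 gaps between neighbouring summits were at least that long. Of the protein-coding genes of 25 to 65 kb, 10.4% likewise had no pooled candidate within 5 kb. Each candidate list, pooled or of 1 replicate, holds 30000 peaks. The lack of pooled candidates at robo3 thus means only that no summit there ranked within that number. Depth is unknown as well, so a weaker peak at robo3 may have been below what these libraries could show.

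The strongest peak of the 9 genes lay at unc-5, for the receptor through which Netrin repels (FBgn0034013, 2R, 15340472 to 15368300). A peak 793 bp upstream of its outer start site (15339517 to 15339819) had a pooled signal of 445, 269.7 in replicate 1 and 179.5 in replicate 2. It ranked 140 in the pooled list, 117 in replicate 1 and 230 in replicate 2. The nearest start of another coding gene, Hr51, which encodes a nuclear receptor, was 8354 bp away. The peak also lay within 5 kb of the body of Hr51, so by the same rule it counts for that gene too. The inner start site, 9661 bp downstream, had a peak with its summit 79 bp upstream of it and a pooled signal of 249.6, with 119 in replicate 1 and 133 in replicate 2. An intronic peak 20757 bp from the outer start had a pooled signal of 113 and ranked 4105 in replicate 1 and 1651 in replicate 2. Both peaks near start sites stood among the 1000 strongest of the genome in the pooled list. Within 500 bp of the outer start itself no pooled summit lay, and replicate 1 had a single weak candidate there (signal 18.4, rank 16918).

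The Netrin receptor gene fra (FBgn0011592, 2R, 12529053 to 12564184) held a thresholded peak at its promoter and 3 in its introns. The intronic peaks stood 9267, 11823 and 14754 bp from the start, with pooled signals of 196, 87.6 and 170.4. The first and the third had 105 and 72.1 in replicate 1 and 106 and 99.8 in replicate 2. The middle one split the replicates, with a signal of 21.5 and rank 13274 in replicate 1 against 64.9 and rank 1757 in replicate 2. The promoter summit, 18 bp upstream of the start site, had a pooled signal of 83.8, near the threshold of 81.5, and ranked 3347 in replicate 1 and 5643 in replicate 2. Introns of fra thus held stronger peaks than its promoter in the pooled list.

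At comm (FBgn0010105, 3L, 15721511 to 15728430) 1 thresholded peak lay at the promoter and 1 upstream of it. The promoter summit, 49 bp past the start site, had a pooled signal of 83.5, near the threshold of 81.5, with 43.4 in replicate 1 and 45.9 in replicate 2, and ranks of 3964, 4398 and 3240. The upstream summit, 1146 bp before the start, had a pooled signal of 101, with 62.9 in replicate 1 and 33.8 in replicate 2, and ranks of 2926, 2396 and 5413. The related genes comm2 (15697594 to 15699850) and comm3 (15613184 to 15647762), which lie near comm on 3L, were named after their values were seen. At comm2 the promoter also held a thresholded peak, which had a signal of 92.5 and ranked 1705 in replicate 1 and 14026 in replicate 2, while the single thresholded peak of comm3 (280.1) lay in an intron at -101 bp from the start of another gene, Phs.

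A thresholded summit lay within 500 bp of a start site of 7 of the 9 genes, against 19.5% of all protein-coding genes, and the 2 without were NetA and robo3. No test was run on this count. Of the members' 14 annotated start sites 9 had such a summit, a share not counted over all annotated start sites. The start sites of robo1 are 375 bp apart and those of NetB 366 bp apart, and each pair shared 1 peak. The promoter peaks of sli, robo1 and unc-5 were among the top 4097 of both replicates. Those of robo2 and comm missed that rank in replicate 1 (4303 and 4398), and those of NetB and fra in replicate 2 (4754 and 5643). Each replicate taken alone thus gave 5 of the 9 members, a count not made over all protein-coding genes. Without replicate 1 the promoters of fra and NetB dropped out, and without replicate 2 those of comm and robo2. Except at unc-5, the pooled signal of these promoter peaks ran only from 83.5 to 104, below the median of 124 over all thresholded peaks.

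**Figure D2:**
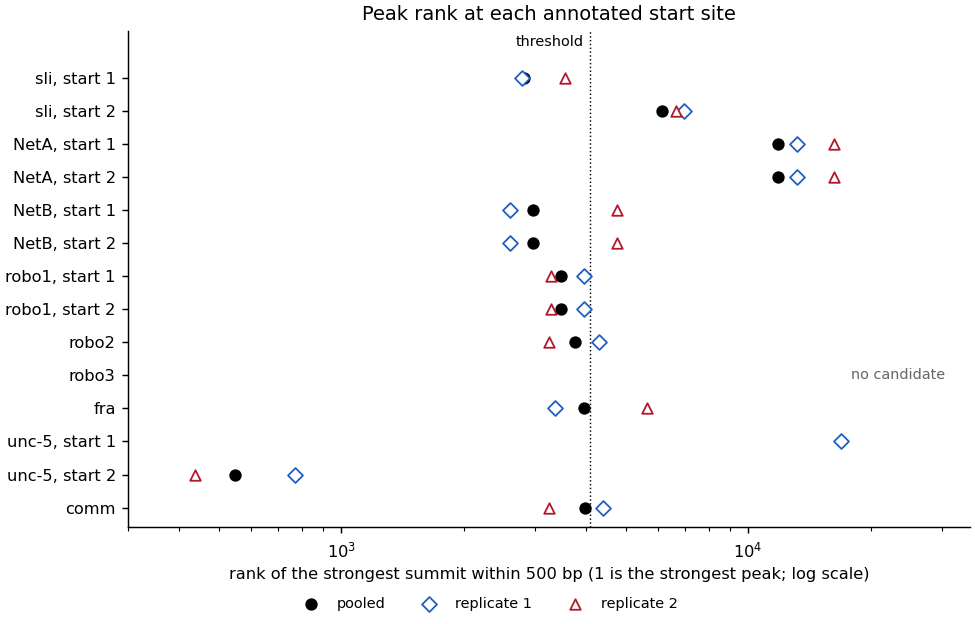
Rank (log scale, 1 is the strongest peak) of the strongest summit within 500 bp of each of the 14 annotated start sites, in the pooled list (filled circles), replicate 1 (diamonds) and replicate 2 (triangles), with start 1 the outermost; the dotted line marks rank 4097. The inner start of unc-5 stands apart at ranks 438 to 768, most other promoters lie near the line, and robo3 has no candidate.

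The 100 bases before the outer start site are shown for 4 members. They set promoters with a thresholded summit (robo2 and comm) beside those without (NetA and robo3). The summits of robo2 and comm lay 69 and 49 bp past the start site, outside the stretches shown. Each stretch is read in the direction of transcription and ends just before the start site, and capitals mark motif matches.
robo2, chr2L:1420454-1420553: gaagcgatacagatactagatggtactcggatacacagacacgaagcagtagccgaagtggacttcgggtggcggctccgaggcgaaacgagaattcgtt
comm, chr3L:15728431-15728530: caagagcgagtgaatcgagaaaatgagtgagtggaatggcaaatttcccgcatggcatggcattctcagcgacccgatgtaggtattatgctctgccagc
NetA, chrX:14653929-14654028: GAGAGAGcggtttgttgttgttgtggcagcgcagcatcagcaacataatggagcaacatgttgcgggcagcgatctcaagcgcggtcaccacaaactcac
robo3, chr2L:1256317-1256416: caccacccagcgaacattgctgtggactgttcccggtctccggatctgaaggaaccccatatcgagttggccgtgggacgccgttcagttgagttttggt
Overlapping GAGAG matches, the core of sites of GAGA factor, stand in the NetA promoter, and 13.1% of 13968 promoters of this length hold that motif. The stretches of the other 3 hold none of the motifs. The 201 bp centred on the comm promoter summit, itself outside the stretch shown, hold a match to ACGTG, a motif named further on. GC content of the stretches was highest at robo3, with 57.0%, followed by NetA with 54.0% and robo2 with 53.0%.

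Each of the members' 23 thresholded peaks stood in the top 4097 of at least 1 replicate. Replicate 1 placed 19 there and replicate 2 placed 18, with 14 placed there by both (60.9%), where 69.5% of all thresholded peaks were. The other counts have no share over all thresholded peaks beside them. The thresholded list comes from the pool of these replicates, so a high rank in at least 1 of them is partly built in. The log2 ratio of the signal in replicate 1 to that in replicate 2 had a median of 0.13 and an SD of 0.61 over the 23 peaks, next to 0.25 and 0.63 over the 4078 thresholded peaks with a partner in each replicate; peaks are not independent, so no test was made. It ran from -1.59 at the middle intronic peak of fra to 1.16 at the Ppa promoter beside robo1. The replicates shared a single control, whose part in their likeness was not tested.

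**Figure D3:**
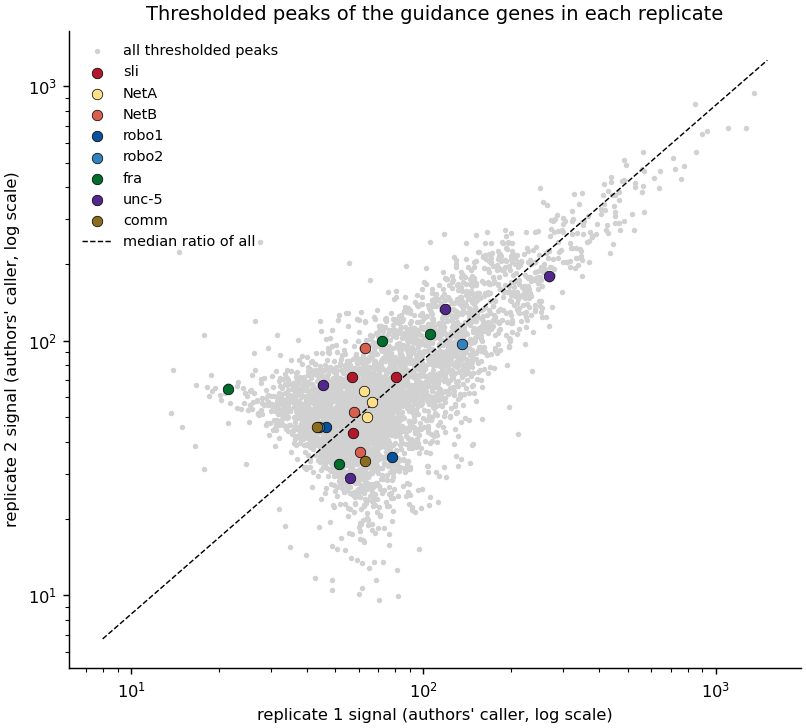
Signal in replicate 2 against signal in replicate 1 (both log scale) for the 23 thresholded peaks at the members, coloured by gene, over all thresholded peaks in grey; the dashed line is the median ratio of all of them. The unc-5 and robo2 upstream peaks lie high on both axes, and 1 fra peak lies far to the left, at 21.5 in replicate 1 and 64.9 in replicate 2.

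Candidates of the pooled list, thresholded peaks included, were denser at 6 of the 9 members by over 2 per 10 kb, and at NetA slightly, than over the chromosome arms. The pooled list had 2.24 candidates per 10 kb over the arms and 3.74 per 10 kb over the members' windows, and thresholded peaks numbered 3.06 and 5.55 per 100 kb. The windows include 5 kb on each side, and with it the 4 thresholded peaks near starts of neighbouring genes. At robo1 they also hold candidates at Ppa and lncRNA:CR44764. Density was highest at sli (6.39 per 10 kb), followed by robo2 (5.36), fra (5.32), unc-5 (5.29), robo1 (4.88) and comm (4.73). It was 2.50 at NetA and 1.64 at NetB, below the arms in the latter, and 0 at robo3. NetA and NetB are the only members on X, and density over X alone was not counted. Among the 623 protein-coding genes of 25 to 65 kb, the median number of pooled candidates within 5 kb was 10, with quartiles of 3 and 18. NetA (15) and NetB (12) lay above that median, and robo3 (0) below the lower quartile. The genes sli (40), robo2 (27), fra (24) and unc-5 (20) lay above the upper quartile, while robo1 and comm are shorter than this class. Their counts, 9 at robo1 and 8 at comm, lay above the upper quartile of 7 over all protein-coding genes, whose median length is 2.16 kb. Per length, the Netrin genes and robo3 were also lowest in each replicate, with 15, 15 and 3 candidates in replicate 1 and 13, 12 and 1 in replicate 2 at NetA, NetB and robo3. The candidate lists include background by the authors' own naming, and the median signal over all of the members' candidates (30.4) was near that of all candidates (32.2). In the pooled list, 106 of the 155 overlapped a candidate of both replicates, 25 of replicate 1 only, 20 of replicate 2 only and 4 of neither. By place, 102 lay in introns, 21 downstream, 11 at promoters, 11 upstream, 7 in coding exons and 3 in 3' UTRs. Neither split was counted over all candidates, so both describe the members only.

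**Figure D4:**
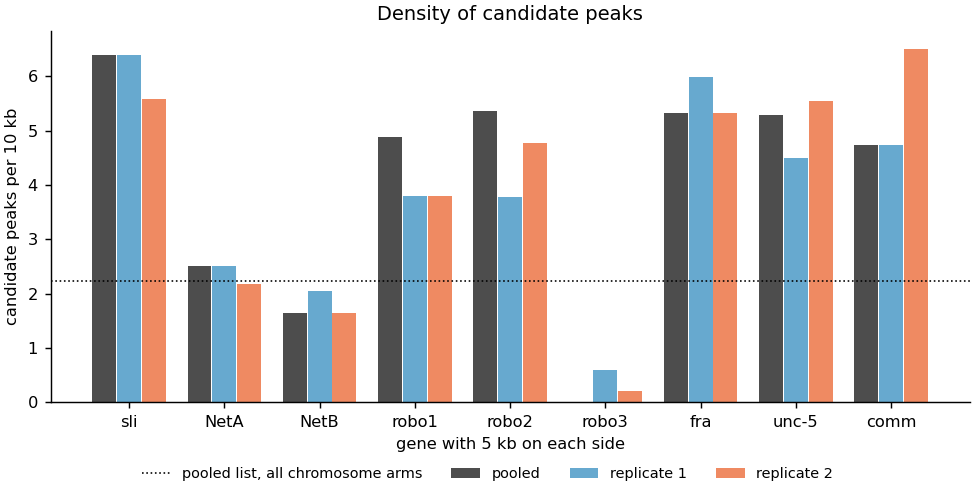
Candidate peaks per 10 kb in each member and 5 kb on each side, for the pooled list and each replicate; the dotted line is the density of the pooled list over all chromosome arms, 2.24. The bars of sli, robo1, robo2, fra, unc-5 and comm stand above the line, those of NetA and NetB near it, and robo3 has no pooled candidate.

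The sequence around the members' 23 thresholded summits was searched for 9 motifs, and the shares that held each are set beside those of all peaks. Both strands of the 201 bp centred on each summit were searched for each motif. The E-box CACGTG and the class C site CACGCG, both known as sites of HES repressors such as the family of Sidpn, had 0 matches at the members. They are held by 2.71% and 4.81% of all thresholded peaks and by 2.73% and 5.77% of other candidates. With only 23 peaks, 0 matches at shares this low says little, and the same holds for the unmatched motifs below. The N-box CACNAG was found in 5 of the 23 (21.7%) and in 22.9% of all thresholded peaks. The site of Single-minded and Tango, the midline regulators, is ACGTG, which also lies inside the E-box; it was found in 5 (21.7%), at the promoters of robo1 and comm, at the outer and inner peaks of unc-5 and in the 3' UTR of NetB, against 15.8% of all thresholded peaks and 17.4% of other candidates. The GAGAG motif was found in 7 (30.4%) against 27.3%, with 3 matches in the strong intronic peak of sli. TATCGATA, the DRE of many core promoters, was found at the promoter of robo1, and 4.61% of all thresholded peaks hold it. No member held CAGGTAG, the site of Zelda (1.03% of all thresholded peaks), the core promoter motif GGTCACACT (2.47%) or the Su(H) site GTGGGAA (2.34%). The median GC content of the windows was 41.3%, with a range of 30.3% to 54.7%, between 38.3% in all thresholded peaks and 43.8% in other candidates.

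Other genes of the pathway held thresholded peaks in part. A list of 24 genes for cofactors, kinases, GTPases and other proteins of guidance signalling included comm2 and comm3. Of the 24, 20 (83.3%) had a thresholded summit within 5 kb, and Sos, Ptp69D, Nedd4 and Dscam1 had none. A promoter summit stood at 13 of the 24, against 19.5% of all protein-coding genes. With each summit counted only for the gene of its nearest start site, 14 of the 24 kept one, against 18.5% of protein-coding genes. The share with a summit within 5 kb was 46.3% over all protein-coding genes and 62.4% over those of 25 to 65 kb. The list's median length is 26.5 kb, and no test was run. The strongest were cno, for the junction protein Canoe (728, in an intron, rank 48), the Rac-like GTPase gene Mtl (370.3, at -171 bp from its start), ena, for the actin regulator Enabled (356, at -81 bp from the start of CG15118), and Cdc42 (289.6, 79 bp past the start of Mer). The last 2 peaks thus lay at promoters of neighbours. A further list held 13 genes for transcription factors of the midline and of motor neurons, and also the neural precursor factors ase and wor among the 13. Of these, 6 (46.2%) had a thresholded summit, near the 46.3% of all protein-coding genes, at a median length of 4.78 kb. They were led by zfh1 (388), lola (251), sim (176) and tup (168), the last of these at -110 bp from the start of CG10602. The midline regulator sim had its peak in an intron, ranked 1600 and 737 in the replicates. Those without were vvl, exex, eve, HGTX, Lim3, ase and wor.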

How the data were processed

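ChIP-seq peak lists on dm6 were analysed for 2 biological replicates, their pool and the IDR-thresholded set; per the labels' protocols chromatin was sonicated to 200 to 800 bp. Per the deposited file records, each candidate list was called against the same control and holds peaks and background as input for IDR. Peak signal is the value the authors' caller deposited, in a unit not given in the sources used here; peak caller, aligner, IDR threshold and read depth are likewise not given. Lists on dm3 were not used here.

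Genes and start sites came from Ensembl release 115 without transposable elements and pseudogenes, and sequence from NCBI's Release 6, with some sequences not reported here; all 29 annotated start codons of the members read ATG. Coordinates are 1-based. A replicate value is that of the overlapping peak with the nearest summit. Counting was checked on made-up peaks. Python 3.11.15, pandas 2.3.3 and matplotlib 3.10.9 were used. Members and gene lists were chosen with earlier results of these data known, so shares and signals are descriptions and no test was run. All 9 members were named, with every thresholded summit and the gene of the nearest start, and the 4 genes of highest signal in each further list; comm2, comm3, the listed genes without a thresholded peak, Hr51, lncRNA:CR44764 and the genes whose start sites lay nearest to peaks of the further lists were named outside this rule, after their values were seen. Alternatives were flanks, overlap rules, nearest-gene assignment, promoter windows, the 1000 strongest peaks and each replicate alone.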

Additional observations from a re-analysis of the deposited data

How the results depend on the processing

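Leaving out a replicate means taking the 4097 strongest peaks of the other. The members with a thresholded summit within 5 kb stayed at 8 of 9 that way, their thresholded summits numbered 20 to 21 in place of 23, their candidates 148 to 151 in place of 155, members with a promoter summit 5 in place of 7, cofactor genes 21 to 22 in place of 20, regulator genes 6 to 7 in place of 6, and the share of protein-coding genes was 45.5% to 46.1% in place of 46.3%. With the 1000 strongest pooled peaks alone, 3 members (robo2, fra and unc-5), 4 summits, 1 member promoter (unc-5), 7 cofactor genes, 2 regulator genes and 16.9% of protein-coding genes remained. With no flank there were 13 summits at 7 members, 14 cofactor genes and 4 regulator genes. The share of protein-coding genes was then 11.7%, and it was 33.6% with 2 kb and 59.7% with 10 kb. Counting a summit only for the gene of its nearest start site gave 12 thresholded summits, still at 8 members, and 69 candidates. It left 14 cofactor genes, 5 regulator genes and 18.5% of protein-coding genes. Overlap in place of the summit, and promoter windows of 200 and 1000 bp, moved no count of the members by over 1.5 times. Under none of these alternatives was the promoter count made over all protein-coding genes. No paired analysis was possible because the labels give 1 group. Read depth is unknown, which limits what can be said of robo3 and of the NetA promoter. Each candidate list holds 30000 peaks, so a weaker summit at robo3 would not appear in it.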
